A study of Homo sapiens with 6 samples.

Results

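Complement factors and complement regulators were examined on Illumina bead arrays in IGROV-1, a cell line established from a human ovarian carcinoma. The 9 genes chosen were the components CFB, C3, C1R and C1S, and the regulators CFI, CD46, CD55, CD59 and CLU, and all probes annotated to them on the platform were taken. A total of 8 of the 9 had a probe, 16 probes in all, among 18852 genes with a probe on the array. CD46 had no probe with its name and was not analysed here. The set was selected on earlier log2 changes of this same contrast, that of CFB among them, so changes of its members between groups are given as a description, with no test.

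Cells were kept for 24 h in culture medium mixed with an equal volume of cell-free ascites fluid from mice bearing intraperitoneal IGROV-1 tumours. Donor mice of the saline ascites group had received saline. Those of the CpG ascites group had received the CpG oligodeoxynucleotide ODN1826, a phosphorothioated DNA that activates Toll-like receptor 9, at 20 µg per mouse, either once or on 3 consecutive days. Both groups were the same cell line, and both were exposed to mouse ascites, so no array shows the cells without ascites. There were 3 arrays per group and 3 mice per group. The labels do not say which dosing schedule an ascites came from, or whether the samples within a group go back to different mice or cultures. A p-value here therefore reflects the spread among these samples and nothing wider, and that spread could be technical.

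Complement is a cascade of serum proteases and binding proteins that marks cells and microbes, recruits leukocytes and can form a pore in membranes. C1R and C1S are the proteases of the classical pathway, CFB supplies the protease of the alternative pathway, and C3 is the protein on which the pathways meet. Cells protect themselves with the membrane regulators CD46, CD55 and CD59 and with soluble regulators such as factor I, encoded by CFI, and clusterin, encoded by CLU. The liver makes most serum complement, but epithelial and tumour cells also transcribe some components, and CFB and C3 are known to be induced by inflammatory cytokines in many cell types.

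The sequence upstream of CFB is shown because CFB was the member whose level differed most between the groups, with those of CD55 and CD59, the other members above background, for comparison. All are RefSeq windows of build GRCh38.p14 from 250 bases before the gene start to 50 after it, read on the gene's strand. Windows of 6 of the 9 genes were searched, of which CD59 has 4, and the farthest upstream is shown. Capitals mark matches, on either strand, to the NF-kB consensus, to TTCNNNGAA for a STAT site, to GAAANNGAA for an interferon response element and to TTGCNNAA for a C/EBP site.
CFB, chr6:31945845-31946144, plus strand: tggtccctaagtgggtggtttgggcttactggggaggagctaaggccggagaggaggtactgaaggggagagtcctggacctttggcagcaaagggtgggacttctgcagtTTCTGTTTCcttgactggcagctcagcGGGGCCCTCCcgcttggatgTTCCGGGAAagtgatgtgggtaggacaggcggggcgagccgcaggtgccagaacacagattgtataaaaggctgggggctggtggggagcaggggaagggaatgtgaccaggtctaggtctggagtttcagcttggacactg
CD55, chr1:207321428-207321727, plus strand: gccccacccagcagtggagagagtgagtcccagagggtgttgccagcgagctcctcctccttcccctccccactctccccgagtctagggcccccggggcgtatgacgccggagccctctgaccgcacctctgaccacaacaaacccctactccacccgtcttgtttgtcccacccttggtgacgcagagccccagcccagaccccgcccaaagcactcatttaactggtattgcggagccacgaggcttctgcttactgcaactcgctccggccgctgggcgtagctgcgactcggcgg
CD59, chr11:33736430-33736729, minus strand: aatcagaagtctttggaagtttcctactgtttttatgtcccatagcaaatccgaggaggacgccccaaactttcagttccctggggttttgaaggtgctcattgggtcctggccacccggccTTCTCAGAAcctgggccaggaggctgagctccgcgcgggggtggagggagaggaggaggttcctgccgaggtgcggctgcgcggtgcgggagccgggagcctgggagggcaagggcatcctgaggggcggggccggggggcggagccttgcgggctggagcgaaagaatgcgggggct

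The CFB window held 1 match to the NF-kB consensus, 1 to the STAT letters and 1 to the interferon response letters. With the first base of the gene counted as 0, the STAT match lay at -92 to -84 and the interferon response match at -139 to -131. The NF-kB match lay at -112 to -103, and none of these matches overlapped another. The CD55 window held no match to any of the 4, and the CD59 window shown held 1 match to the STAT letters. Matches were also found in genes at background: of the 2 windows of C1R, 1 held the STAT letters and 2 the C/EBP letters. Of all 4 CD59 windows, 2 that overlap held the STAT letters at the same site and 1 held the C/EBP letters, and those of CFI and CD46 held none of the 4 motifs. Of all 35116 windows in the table, 11.3% held the NF-kB consensus, 7.66% the STAT letters, 8.11% the interferon response letters and 10.5% the C/EBP letters. Such a match is a description of the letters and shows no binding.

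Across the 6 arrays, mean raw intensity ran from 587 to 788, and 13303 to 13835 probes per array were above background, defined as a detection p-value under 0.01. CpG ascites replicate 1 was the array least like the rest, with a correlation across kept probes of 0.948 to 0.958 with the other 5, which correlated among themselves at 0.978 to 0.992. Results are therefore also given without it. Of 12 epithelial and ovarian markers with a probe, EPCAM, FOLR1, KRT19, KRT7 and PAX8 were above background on all 6 arrays, while CLDN4, KRT8, MUC16 and WT1 were above background on none. Summed over all probes of the list as normalized linear intensity, these markers gave 23300 to 25342 in saline ascites and 25527 to 29324 in CpG ascites, without overlap. Such a sum is led by bright probes such as KRT19, and over all 6 arrays members went apart. CDH1 was above background on all CpG arrays and on no saline array, so it passed the filter through CpG ascites alone. Against the detection limit it was at least 1.49-fold higher. That bound was led by CpG ascites replicate 1, with log2 intensities of 7.96, 7.05 and 6.59 on replicates 1, 2 and 3. Both KRT18 probes had lower means in CpG ascites, with log2 changes of -1.07 and -0.52. These rested largely on CpG ascites replicate 1, where both probes were below the lowest detected value. Without CpG ascites replicate 1 the KRT18 changes were -0.23 and 0.17. That of CDH1 was 0.57, but its saline values were below background, so this is no measured change. The part of the marker difference in the results below was not tested. Of 10 monocyte and macrophage markers CD68 alone was above background on all arrays, and PTPRC, CD14, CSF1R and CD163 on none. Of 9 fibroblast markers THY1 was above background on all arrays, PDGFRA on some and the rest on none. Of 5 mesothelial markers KLK11 was above background on all arrays, UPK3B on some and the rest on none. None of 7 hepatocyte markers, ALB and APOA1 among them, was above background on any array.

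CFB, complement factor B, was low in saline ascites and higher in CpG ascites. Its raw intensity was 209, 208 and 212 on saline ascites replicates 1, 2 and 3, and 476, 349.9 and 290.3 on CpG ascites replicates 1, 2 and 3. After background correction and normalization its log2 intensity was 6.93, 6.74 and 6.75 in saline ascites and 8.66, 7.73 and 7.89 in CpG ascites. Every CpG array lay above every saline array, and CpG ascites replicate 1 was the highest.

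The means were 6.81 ± 0.11 (SD, n = 3) in saline ascites and 8.09 ± 0.50 (SD, n = 3) in CpG ascites, a log2 change of 1.29 ± 0.24 (SE), or 2.44-fold. Groups did not overlap, with CpG higher, at 10.9% of the 13713 probes above background on at least 3 arrays, and with CpG lower at 9.82%. CFB had the largest positive log2 change of those 13713 probes, of which 14 exceeded a log2 change of 1. Since the contrast was used in choosing the gene, no test is read from this rank. RNA of a bulk culture was measured, so more expressing cells and more RNA per cell cannot be told apart.

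**Figure D1:**
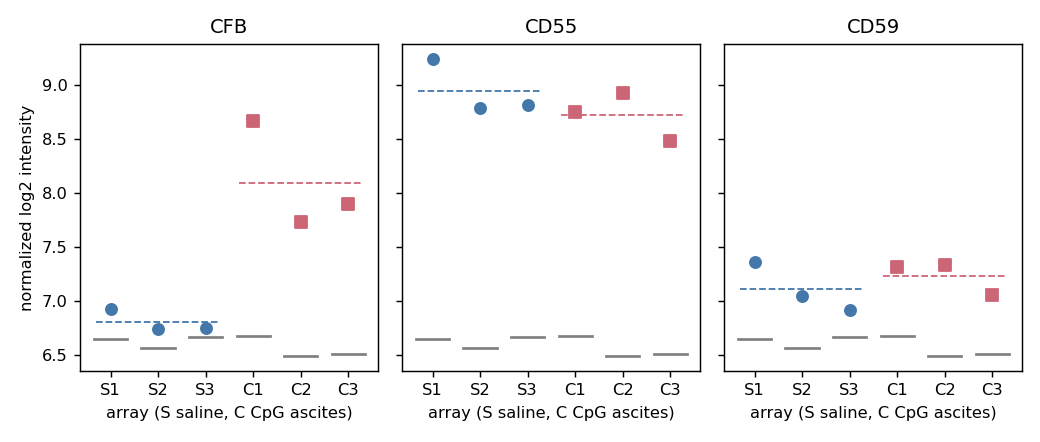
Normalized log2 intensity (vertical axis) of CFB, CD55 and CD59 on each array (horizontal axis), with circles for saline ascites, squares for CpG ascites, dashed lines for group means and grey bars for the lowest detected value on that array. CFB was at 6.74 to 6.93 in saline ascites and 7.73 to 8.66 in CpG ascites, while the groups overlapped for CD55 and CD59.

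The size of the CFB difference rested on a saline level close to background. The detection p-values of CFB in saline ascites were 0.00659, 0.00791 and 0.00922, just inside the limit of 0.01, and those in CpG ascites were listed at 0. Its log2 intensity in saline ascites was 0.28, 0.17 and 0.08 above the lowest value of any probe detected on the same array, and in CpG ascites 1.99, 1.23 and 1.38 above it. With no background correction the fold was 1.80, and with the authors' processed values it was also 1.80. Both settings gave nearly the same changes for CFB, CD55 and CD59, so the second adds little to the first. With normal-exponential background correction at offset 50 the fold was 1.94.

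Against the saline mean, the log2 difference of CFB was 1.86 on CpG ascites replicate 1, 0.92 on replicate 2 and 1.09 on replicate 3. Without CpG ascites replicate 1, the log2 change was 1.00 ± 0.13 (SE), or 2.01-fold, and CFB then had the 6th largest positive log2 change. In that fit 21 of 13713 probes, 0.153%, passed an adjusted p under 0.05 in limma, whereas over all 6 arrays 0 probes (0%) passed and 941 higher and 818 lower probes had an unadjusted p under 0.05. These are counts over all probes, and no test of CFB is read from them. Over 16 alternative settings the fold of CFB ran from 1.80 to 2.78, and its rank among positive log2 changes from 1 to 6. The direction was the same in all 16. The changed filters, the mean-variance trend and the replicate block cannot move a probe's fitted change. Their value of 1.29 was therefore fixed in advance.

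**Figure D2:**
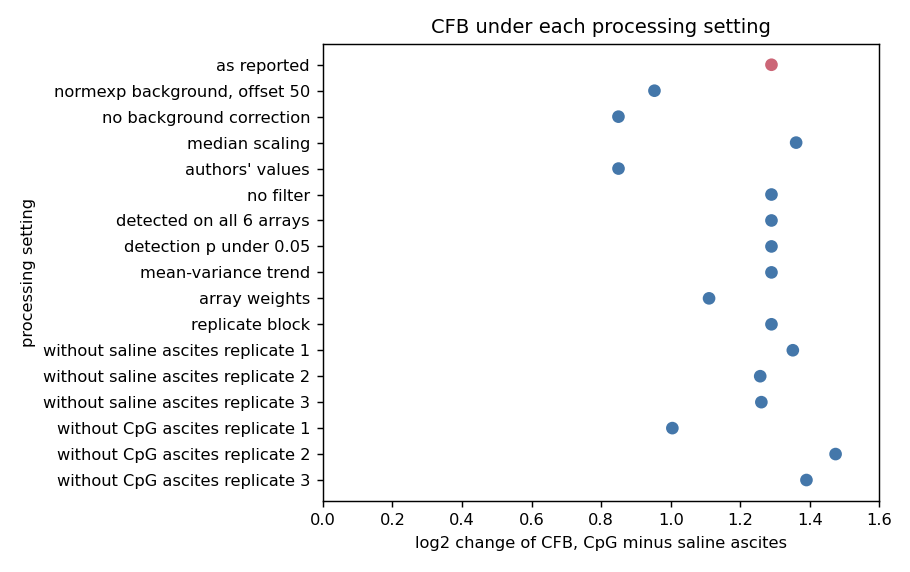
Log2 change of CFB, CpG minus saline ascites (horizontal axis), under the setting as reported and 16 alternatives (vertical axis), 1 point for each. The values ran from 0.85 with no background correction to 1.47 without CpG ascites replicate 2, and all lay above 0. The changed filters, the mean-variance trend and the replicate block cannot move this value.

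The other components, C3, C1R and C1S, were at or near background in both groups. C3, the central protein of the cascade, had log2 intensities of 5.12 to 5.95 over its 2 probes and the 6 arrays, and the lowest detected values per array were 6.49 to 6.67. C1R, a protease of the classical pathway, had 4.65 to 5.88 over 4 probes. Neither gene was above background on any array, so no change is given for them, and a level below this limit cannot be told from none.

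C1S, the protease that C1R activates, was the nearest to the limit. One of its 2 probes had log2 intensities of 5.58, 5.75 and 6.72 in saline ascites and 6.82, 6.21 and 6.34 in CpG ascites, and it was above background on saline ascites replicate 3 and CpG ascites replicate 1 alone. The groups overlapped. Its detection p-values on the remaining CpG arrays were 0.0132 and 0.0105, just outside the limit that CFB met in saline ascites. The other C1S probe, annotated to another transcript, was at 4.75 to 5.12.

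Among the regulators, CD55 was the farthest above background. CD55, decay accelerating factor, is a membrane protein that dissociates the enzymes that cleave C3. Its log2 intensity was 9.24, 8.78 and 8.82 in saline ascites and 8.75, 8.93 and 8.48 in CpG ascites. The groups overlapped, and saline ascites replicate 1 was the highest array and CpG ascites replicate 3 the lowest. The log2 change was -0.23 ± 0.18 (SE), and -0.24 ± 0.20 without CpG ascites replicate 1. Without saline ascites replicate 1 it was -0.08, and without CpG ascites replicate 2 it was -0.33.

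CD59, the membrane inhibitor of the terminal pore, had 7.36, 7.05 and 6.92 in saline ascites and 7.31, 7.33 and 7.05 in CpG ascites on one probe. The groups overlapped, with a log2 change of 0.12 ± 0.16 (SE), and 0.08 ± 0.17 without CpG ascites replicate 1. With 1 array left out it ran from 0.03, without saline ascites replicate 3, to 0.25, without saline ascites replicate 1. The second CD59 probe, annotated to another transcript, was at 4.96 to 5.20 and above background on no array. For CD59 the standard error exceeded the change, for CD55 it was nearly as large, and neither size nor direction is settled by 3 arrays per group.

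The soluble regulators were at background. CFI, the protease that inactivates the active fragments of C3 and C4, had log2 intensities of 5.28, 5.60 and 5.73 in saline ascites and 6.47, 5.93 and 5.32 in CpG ascites. The groups overlapped, and its smallest detection p-value was 0.0119, on CpG ascites replicate 1. CLU, a secreted chaperone that also blocks the terminal pore, had 4.64 to 5.16 over 3 probes. Of the 16 probes of the 8 genes, 3 passed the filter, 12 were above background on no array, and 1, of C1S, was above background on some arrays but not kept.

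**Figure D3:**
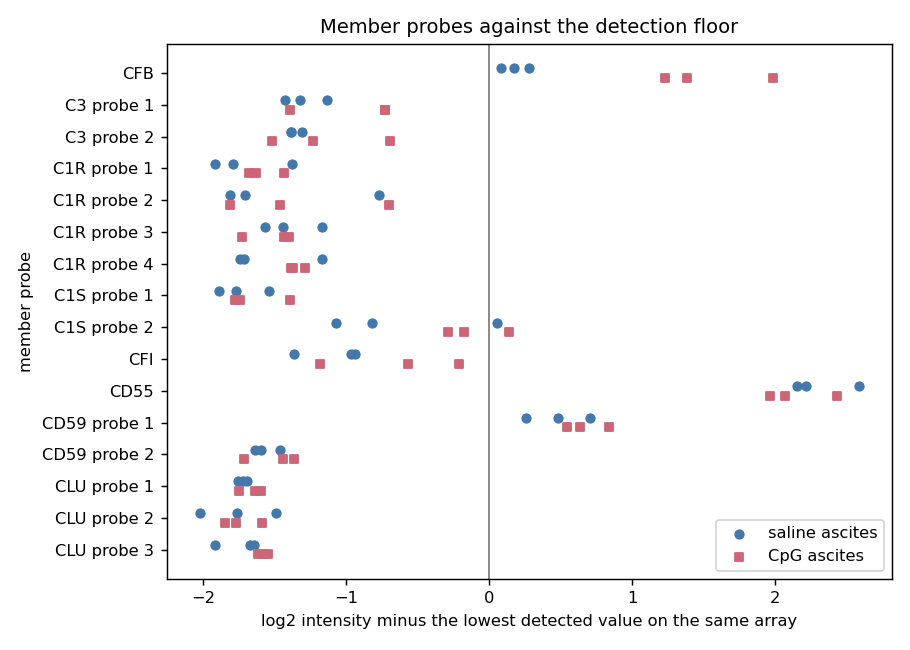
Log2 intensity of each of the 16 member probes minus the lowest detected value on the same array (horizontal axis), with circles for saline ascites and squares for CpG ascites and 1 row per probe. CFB, CD55 and 1 probe of CD59 lay above 0 on every array, 1 probe of C1S lay around 0, and the rest lay below it.

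The rest of the pathway was described from 4 lists of complement genes that were not members. Of their 54 genes, 49 had a probe, 41 were above background on no array, and 6 were kept. No kept gene of these lists passed an adjusted p under 0.05 in limma, in either direction, and 1 had an unadjusted p under 0.05, where 6.86% of all probes were higher and 5.97% lower at that limit. Their median log2 change was -0.06, beside 0.01 for all 9211 genes kept.

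Of the initiation genes, C1RL alone was kept, which encodes a protease related to C1R. Its log2 intensity was 8.30 ± 0.18 (SD, n = 3) in saline ascites and 8.80 ± 0.18 in CpG ascites, a log2 change of 0.49 ± 0.15 (SE) with an adjusted p of 0.283 in limma. The groups did not overlap, with CpG higher, as at 10.9% of all kept probes. C1QA, C1QB, C1QC, C2, C4A and C4B were above background on no array.

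Of the alternative and terminal components, 3 of 9 were kept. C5, which is cleaved at the start of the terminal pathway, was at 9.61 ± 0.04 (SD, n = 3) and 9.62 ± 0.21, a log2 change of 0.00 ± 0.14 (SE). CFD, the protease that activates factor B, had a log2 change of -0.12 ± 0.14, and C8G, a subunit of the pore, of -0.14 ± 0.12, with groups that overlapped for CFD but not for C8G. Their adjusted p-values in limma ran from 0.625 to 0.993. At C8G CpG was lower without overlap, as at 9.82% of all kept probes. C6, C7, C8A, C8B and C9, the other pore proteins, and CFP, properdin, were above background on no array.

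No gene of the further regulators was kept. All 15 with a probe, SERPING1 (the C1 inhibitor), CR1, C4BPA and VTN among them, were above background on no array. Of the receptors, C1QBP, a protein that binds C1q and resides mainly in mitochondria, had a log2 change of -0.25 ± 0.12 (SE). ITGB2, the beta chain shared by leukocyte integrins that bind C3 fragments, had 0.13 ± 0.11 on its brightest probe and 0.33 ± 0.11 on its other kept probe. None of these passed (adjusted p in limma 0.442, 0.640 and 0.317). The groups did not overlap on any of the 3 probes, with CpG lower for C1QBP and higher for ITGB2. Of the 6 kept genes of the 4 lists, 2 were higher and 2 lower without overlap. Among all 9211 genes kept, 1022 were higher and 857 lower in this way. The alpha chains ITGAM and ITGAX were above background on no array.

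**Figure D4:**
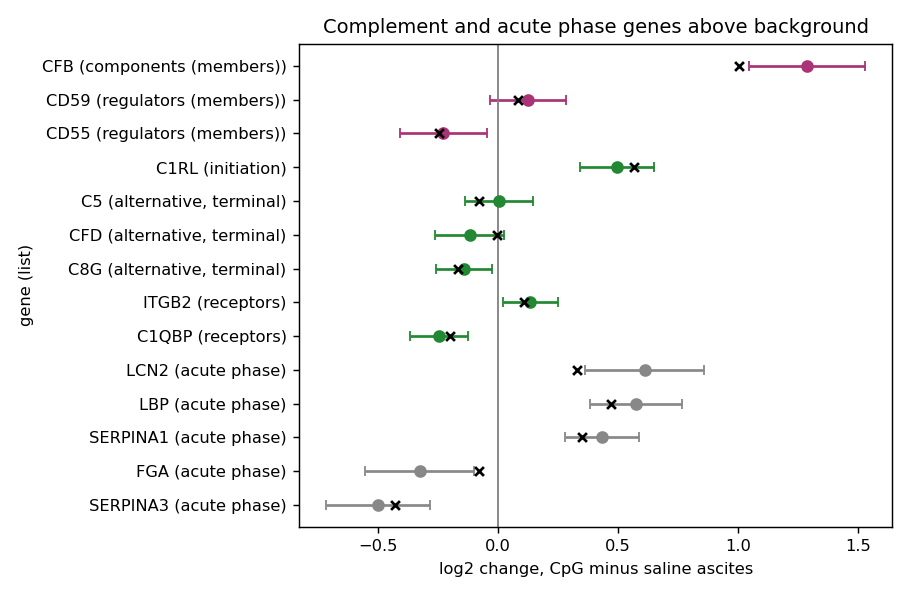
Log2 change, CpG minus saline ascites (horizontal axis), for each kept complement and acute phase gene (vertical axis), with circles for the fitted change, bars for its standard error and crosses for the change without CpG ascites replicate 1. CFB stood at 1.29 (1.00 without that array), and the other genes lay between -0.50 and 0.61.

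CFB and C3 are acute phase proteins, so the other acute phase genes were set beside CFB. Of 18 with a probe, 5 were kept, 0 passed the test in limma, and 3 higher and 0 lower had an unadjusted p under 0.05, where 613 higher and 453 lower of all 9211 genes kept did. LBP, a binding protein for bacterial lipopolysaccharide, had a log2 change of 0.58 ± 0.19 (SE), SERPINA1, alpha-1 antitrypsin, 0.43 ± 0.15, and LCN2, an iron-scavenging antimicrobial protein, 0.61 ± 0.25. Their adjusted p-values ran from 0.302 to 0.372. These 3 had the smallest p of the 5, so that their groups did not overlap largely follows from this choice. Of all 9211 genes kept, 1022 were higher and 857 lower without overlap. LCN2 had log2 intensities of 12.02, 11.05 and 11.28 on CpG ascites replicates 1, 2 and 3, and its change without replicate 1 was 0.33 ± 0.15. SERPINA3 had -0.50 ± 0.22 and FGA, a fibrinogen chain, -0.33 ± 0.23, or -0.08 ± 0.15 without that array.

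Of 28 receptors and factors known to induce complement genes that had a probe, 23 were kept, 11 with higher and 12 with lower values. In limma 0 passed, and 4 higher and 1 lower had an unadjusted p under 0.05, beside 6.86% higher and 5.97% lower of all probes. Their median log2 change was -0.01, and 0.13 without CpG ascites replicate 1, so the list had no settled direction. TNFAIP3, a feedback inhibitor of NF-kB, had 0.66 ± 0.20 (SE). NFKBIZ, a nuclear cofactor of NF-kB, had 0.38 ± 0.13, and STAT3, the factor downstream of interleukin-6, 0.56 ± 0.21, and 0.37 ± 0.16 without that array. Their adjusted p-values ran from 0.281 to 0.346. These 3 had the smallest p of the list, so that their groups did not overlap largely follows from this choice. Over the 23 genes, 6 were higher and 2 lower without overlap, beside 1022 higher and 857 lower of all 9211 genes kept. The other STAT3 probes had 0.48 ± 0.13 and 0.47 ± 0.14. CFB and TNFAIP3 also belong to the targets of NF-kB. In the same list NFKBIA had 0.32 ± 0.12, CEBPD 0.37 ± 0.16 and RELB 0.17 ± 0.12, each with CpG higher and groups without overlap. NFKBIE had -0.43 ± 0.16 and NFKB1 -0.16 ± 0.12, in both with CpG lower and groups without overlap. Whether NF-kB took part was not tested.

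CFB lies in the class III region of the major histocompatibility complex, beside C2. Of 11 genes of that region with a probe, 5 were kept, and 0 passed in limma. At an unadjusted p under 0.05 there were also 0, beside 613 higher and 453 lower of all 9211 genes kept. Without CpG ascites replicate 1 there was 1, SKIC2, higher at 0.44 ± 0.13 (SE), beside 576 higher and 621 lower of all genes kept. PPT2, a lysosomal thioesterase gene, had a log2 change of 0.49 ± 0.21 (SE), SKIC2, a helicase of RNA decay, 0.32 ± 0.15, and DXO, an RNA decapping enzyme, 0.22 ± 0.15, with adjusted p-values in limma of 0.397 to 0.562 and overlapping groups. Near C1R and C1S, 6 of 9 genes were kept and 0 passed, while 3 of the 6, each higher, had an unadjusted p under 0.05, beside 613 higher of all 9211 genes kept. PTPN6, a tyrosine phosphatase gene, had 0.88 ± 0.19, LPCAT3, a phospholipid acyltransferase gene, 0.60 ± 0.17, and C1RL is given above. Their adjusted p-values ran from 0.185 to 0.283. These 3 had the smallest p of the 6, so that their groups did not overlap largely follows from this choice. Of all 9211 genes kept, 1022 were higher and 857 lower without overlap.

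Profiles over the 6 arrays, each centred on its own mean, were compared between CFB and the other 9210 genes kept. The 5 with the smallest root mean square difference were HES2, a transcriptional repressor gene, NAPSB, CPA4, TMEM143 and DEFB1, an epithelial antimicrobial peptide gene, at 0.12 to 0.21 in log2 units, where the median over all genes was 0.72. That their groups do not overlap and that CpG ascites replicate 1 is their highest array follows from this choice. Of the 5, DEFB1 was above background on all 6 arrays, with 10.66 ± 0.16 (SD, n = 3) in saline ascites and 11.71 ± 0.39 in CpG ascites. The other 4 were above background on all CpG arrays and on no saline array, so their saline values, and hence their differences from CFB and their order, are not measured levels. The likeness is a description over 6 arrays of 2 groups, and the arrays share their normalization.

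**Figure D5:**
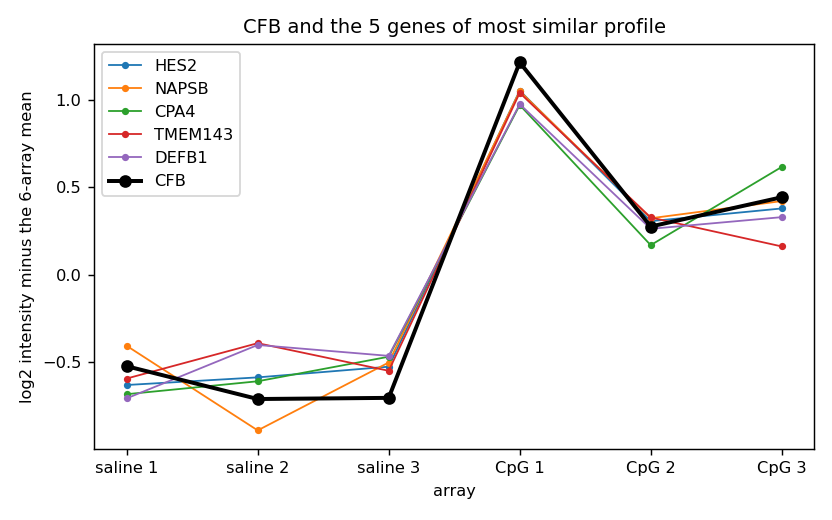
Log2 intensity minus the mean over 6 arrays (vertical axis) on each array (horizontal axis) for CFB, in black, and the 5 genes with the smallest root mean square difference to it. All 6 lines lie below 0 on the saline arrays and are highest on CpG ascites replicate 1.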

How the data were processed

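RNA of IGROV-1 cells was profiled on 6 Illumina arrays, 3 with saline ascites and 3 with CpG ascites. Trizol extraction, column clean-up with DNase and amplification to biotinylated cRNA are given per the labels' protocols, and summary of the bead data with BeadStudio per the submitters' processing notes. The authors deposited a table of probe intensity that is not normalized, per the file headers, with a detection p-value per probe and array. A second deposited table holds their processed intensity, whose ranks equal those of the first and whose medians are 121 on every array. Its normalization is not stated in those sources, and it served as an alternative.

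Intensities of 48801 probes were processed with neqc of limma 3.58.1 in R 4.3.3 (normal-exponential background correction from the detection p-values, offset 16, quantile normalization, log2). The 13713 probes above background (detection p-value below 0.01) on 3 or more arrays of any group were fitted with lmFit and eBayes, CpG minus saline, with no covariate. P-values are two-sided and adjusted by Benjamini and Hochberg over all kept probes and called below 0.05. A value after ± is the SE of the fitted change or the SD over 3 arrays, as marked. The number of arrays limits the precision. The fit was tested on simulated data.

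Gene names came from the platform annotation, updated by gene number through a RefSeq table, which held 28058 of 28097 probes with 1 gene. A further 13 probes with several genes were not named. In lists, the probe with the highest mean stood for a gene. Named were all members, the 3 genes with the smallest p per list where none passed, and the 5 genes closest to CFB. Further genes of some lists were named beside these. Members and lists were chosen with earlier results of these data known. Promoter motifs were settled on after looser NF-kB letters, tried first, had matched many more promoters.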

Additional observations from a re-analysis of the deposited data

Results flagged for a closer look

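C5AR1, the receptor for the C5a fragment, did not pass the filter on dim probes and so entered no comparison. It was seen as a signal in data outside the comparisons, because its probe was above background on 2 CpG arrays and on no saline array. Its mean log2 intensity was 6.92 ± 0.54 (SD, n = 3) in CpG ascites and 5.97 ± 0.32 in saline ascites. The groups did not overlap, which largely follows from this choice, and 10.9% of kept probes were higher without overlap. The closest values, 6.38 on CpG ascites replicate 3 and 6.28 on saline ascites replicate 1, were both at background. Because C5AR1 was not well above background on any saline array, it has no measured fold. An estimate against the detection limit was 1.22-fold higher in CpG ascites. The estimate sets the mean of all CpG arrays against the mean of, per saline array, the higher of the lowest detected value and the probe's own. On CpG ascites replicate 3 the probe, at 6.38, was itself below the lowest detected value of 6.51, so the estimate is no strict lower bound. No test was run on it.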

How the results depend on the processing

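Over all probes, 0 passed with the settings as reported. The count was 1 with no background correction, 1 with the authors' values and 14 with a mean-variance trend, and with 1 array left out it ran from 0 to 21, the latter without CpG ascites replicate 1. It was 0 in the other 7 alternatives. Among other complement genes 0 passed in all 16 alternatives. The log2 change of CFB moved to 0.85 with no background correction and 0.85 with the authors' values, neither of which shows background subtraction. With normal-exponential background correction at offset 50 it was 0.95, so its size also varied among settings with background correction. It ran from 1.00 to 1.47 with 1 array left out. The changes of CD55, from -0.33 to -0.08, and CD59, from 0.03 to 0.25, kept their sign in all 16. The changed filters, the mean-variance trend and the replicate block could not have moved these changes. The medians of the acute phase list (-0.03 with no filter) and of the alternative and terminal components (0.0042 with no filter) changed sign in that setting alone. The median of the inducer list, as reported, was the value of 1 gene, SOCS3, at -0.01 ± 0.45 (SE). SOCS3 was above background on 1 saline and 2 CpG arrays. That median lay near 0, ran from -0.01 to 0.13 and changed sign in 12 of 17, and the cause was not tested. Deviations of same-numbered arrays correlated at -0.10, 0.01 and -0.02, beside -0.08 to 0.09 between arrays of unlike number. No pairing by number was seen, but 3 arrays per group cannot exclude it. With the replicate block 0 probes and 0 other complement genes passed. The change of CFB stayed at 1.29, as it must when each block holds an array of both groups. A block for the chip was planned but not run, since the columns used name no chip. Members near the detection limit, C1S and CFI, have no measured change at this signal.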
